A study of Mus with 10 samples.

Results

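Cytosolic ribosomal proteins are the protein part of the ribosome that works in the cytoplasm. Most of them come from a single expressed gene, and many of these genes have left processed pseudogenes, intronless copies of their mRNA, across the mouse genome. The small subunit, whose proteins are named Rps, reads the mRNA. The large subunit, whose proteins are named Rpl, joins the amino acids, and its P stalk (Rplp0, Rplp1 and Rplp2) recruits the elongation factors. Their mRNAs begin with a terminal oligopyrimidine (TOP) tract, through which mTOR signalling sets how much of them is translated, and resting lymphocytes raise ribosome production when they grow and divide. Here these genes were examined in type 1 innate lymphoid cells (ILC1s), tissue-resident lymphocytes of the liver, with and without NKp46, the activating receptor that *Ncr1* encodes.

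The genes were chosen by symbol. In the gene count table, 95 symbols began with Rps or Rpl followed by a number, p or s, S6 kinases excepted. Of these, 85 had at least 100 counts over the 10 libraries and were kept, out of 24564 genes, and all 85 passed the filter on low counts and were among the 11463 genes tested. The kept genes were 30 small-subunit genes, 41 large-subunit genes, 3 P-stalk genes, 6 close copies of a ribosomal protein gene (*Rpl22l1*, *Rpl39l*, *Rps27l*, *Rpl7l1*, *Rpl36al* and *Rpl37rt*), 4 genes that RefSeq's gene table lists as pseudogenes (*Rps4l*, *Rpl14-ps1*, *Rps15a-ps6* and *Rps19-ps3*, each a single exon here) and *Rps19bp1*. The last is a binding partner of Rps19, not a ribosomal protein. The symbols also miss 4 tested parts of the ribosome, among them *Rpsa*, *Fau* and *Rack1*, which are given further on. The gene just inside the count limit was *Rpl39l* with 120 counts, and the gene just outside was *Rpl32l* with 71.

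The libraries were 5 of *Ncr1gfp/gfp* ILC1s, in which *gfp* replaces *Ncr1*, and 5 of *Ncr1+/+* ILC1s, all from livers of C57BL/6 mice aged 6 to 8 weeks, male or female, with no treatment named. The gates differed, since the *Ncr1+/+* cells were Lin-NK1.1+NKp46+CD49b-CD49a+ and the *Ncr1gfp/gfp* cells Lin-NK1.1+GFP+CD49b-CD49a+, so GFP stood in for NKp46, and the sorts were over 90% pure by the study's methods. The RNA is described as pools, and whether 1 library was 1 mouse is not given in the sources used here, so p-values measure the spread between these libraries. Library totals were between 15796253 and 22623133 counts, and levels are given as CPM, counts scaled to library size. *Ncr1* was at 259 ± 97.5 CPM in *Ncr1gfp/gfp* and 2029 ± 99.97 CPM in *Ncr1+/+* ILC1s (SD over n = 5 libraries). The 7 ILC1 markers measured, among them *Itga1* and *Klrb1c*, summed to 3973 to 4271 CPM in *Ncr1gfp/gfp* and 3989 to 4251 CPM in *Ncr1+/+* libraries. Of the 7, *Itga1* was higher (log2 fold change 0.32) and *Il7r* lower (-0.97) in *Ncr1gfp/gfp* ILC1s, with adjusted p-values of 0.000481 and 0.00773 in edgeR's test. Markers of other cells had lower sums than the ILC1 markers in both genotypes. The 8 T cell markers summed to 633 to 835 CPM in *Ncr1gfp/gfp* against 461 to 579 CPM in *Ncr1+/+* libraries. Most of this sum was *Cd3g*, at 687 against 501 CPM on average, while *Cd3e* was at 21.1 against 5.72 CPM and *Cd8a* at 19.4 against 6.69 CPM. Of 5 T cell markers tested, 3 were higher at an adjusted p under 0.05 in edgeR's test (*Cd3e*, *Cd3g* and *Cd8a*). The 8 natural killer (NK) cell markers summed to 140 to 226 CPM against 108 to 128 CPM. Of 7 NK cell markers tested, 1 was higher, *Itgam* with 96.0 against 49.4 CPM on average, others such as *Ly6c2* had values below 0 (-0.77) that did not pass, and *Klra4* was at 0 in every library. Hepatocyte markers summed to 123 to 231 against 136 to 193 CPM, endothelial markers to 128 to 151 against 113 to 147 CPM, myeloid markers to 8.78 to 38.6 against 15.1 to 56.4 CPM, B cell markers to 2.49 to 5.03 against 0.561 to 6.04 CPM, and erythroid markers to at most 2.22 and 9.14 CPM, with all 4 globin genes at 0. Most of the hepatocyte sum was *Trf*, at 135 against 138 CPM on average. Most of the endothelial sum was *Pecam1*, at 138 against 130 CPM.

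The ribosomal protein genes took up a small part of the RNA counted, and the shares overlapped between the genotypes. Together the 85 genes held 0.532 ± 0.051% of all counts in *Ncr1gfp/gfp* and 0.553 ± 0.025% in *Ncr1+/+* ILC1s (SD over n = 5 libraries). The libraries of *Ncr1gfp/gfp* replicates 1 to 5 stood at 0.550, 0.603, 0.539, 0.495 and 0.474%, and those of *Ncr1+/+* replicates 1 to 5 at 0.590, 0.535, 0.528, 0.566 and 0.548%. The ranges overlapped, and both the highest and the lowest library were *Ncr1gfp/gfp*. For comparison, the 39 tested initiation factors, which bring the mRNA and the first tRNA to the small subunit, held 0.676% of the *Ncr1+/+* counts. Both are shares of counted reads, and reads that map to several places or to overlapping genes are left out by default. How far this lowered each share was not tested, so the shares do not rank the amounts of mRNA. In these bulk samples, a lower level of a gene could come from a smaller part of the cells expressing it or from less of its RNA per cell. These cannot be told apart.

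Levels differed far more between the genes than between the genotypes. Per kb of exon, the scale on which levels of different genes are compared here, the highest gene stood 712 times above the lowest. The top was *Rpl8*, a large-subunit gene, with 572 ± 28.2 CPM per kb in *Ncr1+/+* and 524 ± 66.1 CPM per kb in *Ncr1gfp/gfp* ILC1s. *Rpl4*, also of the large subunit, followed with 491 ± 63.7 and 466 ± 46.3 CPM per kb (SD over n = 5 libraries). The *Ncr1+/+* range of *Rpl8*, 538 to 603 CPM per kb, overlapped that of *Rpl4*, 456 to 605 CPM per kb, so the order of the first pair was not resolved by the spread between libraries. Also near the top were the P-stalk gene *Rplp1* with 341 ± 33.2 and 349 ± 44.7 CPM per kb, and *Rpl13a*, which also has a role in silencing inflammatory mRNAs, with 311 ± 23.5 and 306 ± 22.5 CPM per kb. The other stalk genes, *Rplp0* and *Rplp2*, were at 138 ± 8.19 and 98.0 ± 9.43 CPM per kb in *Ncr1+/+* ILC1s.

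At the other end stood genes for standard parts of the ribosome, and a close copy. *Rpl34* was at 0.931 ± 0.529 CPM per kb in *Ncr1+/+* and 0.998 ± 0.761 CPM per kb in *Ncr1gfp/gfp* ILC1s, and *Rpl36a* at 1.65 ± 0.358 and 2.12 ± 2.39 CPM per kb. The close copy *Rpl36al* was higher than *Rpl36a*, at 21.5 ± 4.04 and 23.7 ± 5.01 CPM per kb. *Rpl21*, *Rps27a* (whose product is made as a fusion with ubiquitin) and *Rps28* were between 2.58 and 3.57 CPM per kb in *Ncr1+/+* ILC1s. The lowest member, *Rpl39l*, a copy of *Rpl39* known from the germ line, was at 0.421 ± 0.3799 and 1.12 ± 1.03 CPM per kb. In all, 31 of the 85 genes had a mean under 10 CPM and 16 a mean over 100 CPM, and the 5 genes with the most counts held 41.0% of the counts of the group. The median over all 11463 tested genes was 11.3 CPM per kb, and 51 of the 74 genes that are neither copies, pseudogenes nor *Rps19bp1* lay above 10 CPM per kb. The order of the 85 genes was nearly the same in both genotypes (Spearman's rho across genes 0.992, which are measured in the same libraries and are not independent replicates).

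**Figure D1:**
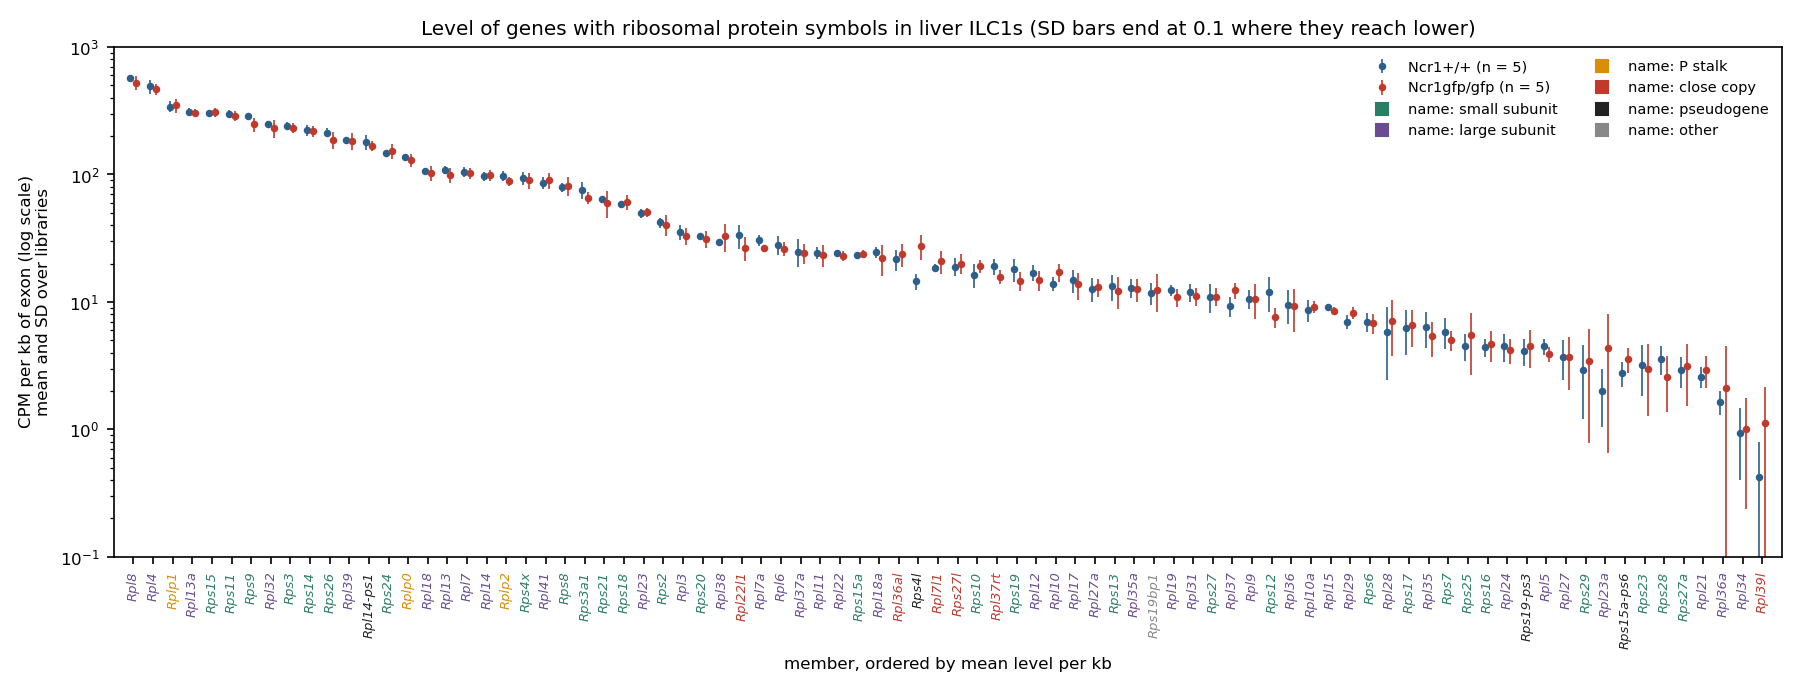
Level of 84 of the 85 genes in CPM per kb of exon (log axis), with the mean and SD over 5 *Ncr1+/+* libraries (blue) and 5 *Ncr1gfp/gfp* libraries (red). Gene names are coloured by class. The levels fall from *Rpl8* to *Rpl39l* over a 712-fold range, and the genotypes lie close together at most genes, with *Rps4l*, in the middle, the 1 gene whose libraries do not overlap.

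Of the 10 genes below the count limit, *Rpl26* and *Rpl30* encode standard parts of the ribosome, and the others are copies or pseudogenes. *Rpl26* had 0 counts in every library, and *Rpl30* had 40 counts over the 10 libraries. *Rpl3l*, which replaces *Rpl3* in striated muscle, had 8 counts, and *Rpl10l*, a testis copy of *Rpl10*, had 1. *Rps27rt*, *Rpl34-ps1* and *Rplp2-ps1* had 0 counts, *Rpl31-ps12* 8, *Rps15a-ps4* 61 and *Rpl32l* 71. *Rps27rt* shares its span with *Rps27* and *Rpl34-ps1* with *Rpl34*. The spans of *Rpl26* and *Rpl30* also overlap other genes, *Gm15772* and *Gm12191*, and RefSeq names 6 and 10 pseudogenes after them. Their low counts therefore do not show that the mRNAs were absent. The counting program leaves out, by default, reads that map to several places or to overlapping genes, so the level of a gene with near-identical copies, or with another gene over it, is uncertain here. Among the 74 genes without copies, pseudogenes and *Rps19bp1*, the 15 with no RefSeq pseudogene named after them had a median of 70.5 CPM per kb, the 27 with 1 to 2 a median of 31.1, the 17 with 3 to 5 a median of 8.86 and the 15 with 6 or more a median of 12.7. The names miss pseudogenes called otherwise, and the part of such copies in these levels was not tested. Of the 85 genes, 32 overlapped the span of another gene, and in 20 of them this included a small nucleolar RNA gene, a kind of guide RNA for ribosomal RNA that ribosomal protein genes often carry in their introns.

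Comparison of the genotypes asked whether loss of NKp46 went with a change in any of these genes. With an adjusted p under 0.05 (edgeR's quasi-likelihood test, Benjamini-Hochberg over all tested genes), 1 of the 85 genes was higher in *Ncr1gfp/gfp* ILC1s and 0 were lower. Over all 11463 tested genes, 1.35% passed in either direction, 0.567% higher and 0.785% lower. The higher gene was *Rps4l*, which also passed the fold limits of the study's methods, above 1.5 or below 0.7, as 0.733% of all tested genes did. At an unadjusted p under 0.05 there were 5 genes, *Rps12*, *Rps9*, *Rps3a1*, *Rpl37* and *Rps4l*, or 5.88%, against 11.4% of all tested genes. By DESeq2 and by limma-voom, 1 gene was higher and 0 were lower as well. Without *Ncr1gfp/gfp* replicate 2, a second gene was called: *Rps9*, a small-subunit gene, then had a log2 fold change of -0.29 (edgeR's quasi-likelihood test, adjusted p = 0.0353), against -0.21 (adjusted p = 0.228) with all libraries.

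As a group, the ribosomal protein genes lay slightly lower in *Ncr1gfp/gfp* ILC1s, by less than the libraries of 1 genotype differed from each other. The median log2 fold change was -0.04 over the 85 genes and 0.00 over all tested genes, with 50 of the 85 values below 0 and 35 above. The small-subunit genes had a median of -0.04, the large-subunit and P-stalk genes together a median of -0.05, and the 10 copies and pseudogenes a median of 0.13. Among the 37 genes with a mean of at least 20 CPM, where counts are high, 27 values were below 0 and the median was -0.07. For all 37 the 95% confidence interval of the fold change lay within 1.5-fold in either direction. Over all 85 genes, 58 intervals lay within 1.5-fold, and the others, all of genes with a mean under 20 CPM, reached beyond it. The limit of 20 CPM was set after seeing the data, and *Rps4l* fell just under it. *Rps4l* was at 25.9 CPM in *Ncr1gfp/gfp* and 13.7 CPM in *Ncr1+/+* ILC1s on average. Its interval, from 1.52-fold to 2.34-fold, lay wholly above 1.5-fold.

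**Figure D2:**
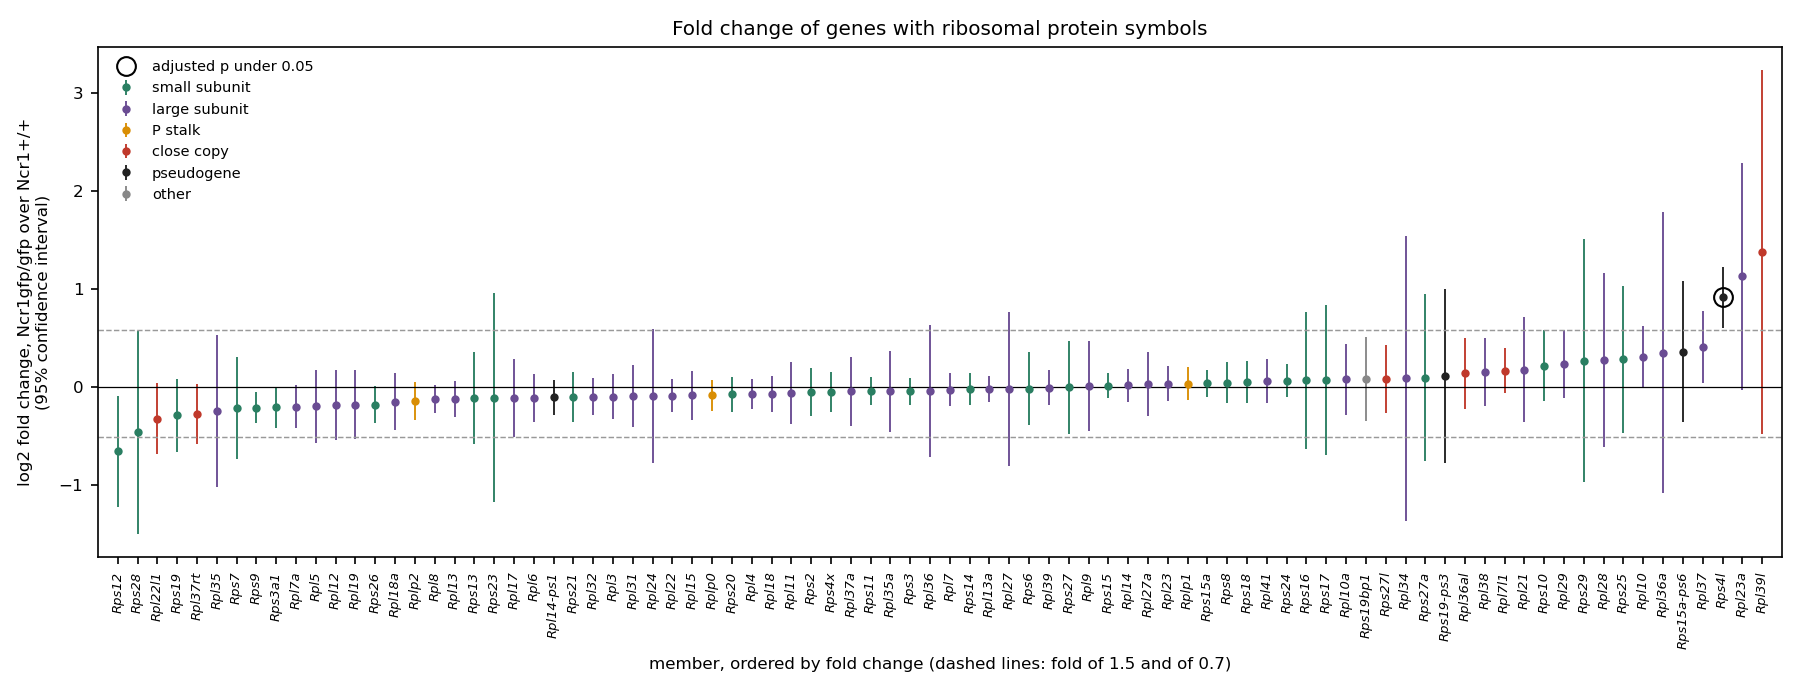
Log2 fold change of 84 of the 85 genes, *Ncr1gfp/gfp* over *Ncr1+/+*, with its 95% confidence interval from edgeR, coloured by class. Dashed lines mark a fold of 1.5 and of 0.7. Most points lie close to 0, from -0.66 for *Rps12* to 1.38 for *Rpl39l*, the widest intervals belong to genes of low level, and *Rps4l* (circled) is the 1 gene with an adjusted p under 0.05.

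*Rps4l* was the exception. In the table it is a single exon of 941 bases on chromosome 6, plus strand, at 148303178 to 148304118, in coordinates whose genome build the table does not name (none of the 85 genes starts where GRCm38 places it). RefSeq lists it as a transcribed pseudogene, a copy of *Rps4x*, the X-linked gene for a small-subunit protein. Its level was 23.2, 35.5, 27.2, 20.3 and 23.2 CPM in *Ncr1gfp/gfp* replicates 1 to 5 and 10.4, 14.2, 15.7, 14.7 and 13.6 CPM in *Ncr1+/+* replicates 1 to 5. Every *Ncr1gfp/gfp* library was above every *Ncr1+/+* library, and *Rps4l* was the only 1 of the 85 genes whose genotypes did not overlap, as was so for 3.11% of all tested genes. The log2 fold change was 0.92 (SE 0.15, adjusted p = 0.00186, edgeR's quasi-likelihood test), a fold of 1.89 with a 95% confidence interval from 1.52 to 2.34. Leaving out 1 library at a time, it stayed between 0.77 and 0.99, with adjusted p-values up to 0.00721.

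No such difference was seen in *Rps4x*. It was at 94.9, 105, 84.0, 79.3 and 73.0 CPM in *Ncr1gfp/gfp* and 101, 89.9, 93.3, 95.6 and 72.5 CPM in *Ncr1+/+* replicates 1 to 5, with overlapping ranges and a log2 fold change of -0.05 (SE 0.10, adjusted p = 0.916, edgeR). Taking both genes per kb of exon, *Rps4l* made up 23.3 ± 2.63% of the pair in *Ncr1gfp/gfp* and 13.7 ± 2.45% in *Ncr1+/+* ILC1s (SD over n = 5 libraries). The lowest *Ncr1gfp/gfp* share, 20.1%, was above the highest *Ncr1+/+* share, 16.2% (exact permutation p = 0.00794, two-sided, the lowest value that 5 against 5 libraries can give, and 0.0317 when adjusted over the 4 pairs of paralogues compared).

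The gene around *Rps4l* was also higher in *Ncr1gfp/gfp* ILC1s. *Rps4l* lies inside the span of *Tmtc1*, which runs on the opposite strand of chromosome 6 from 148180952 to 148392874 and encodes an enzyme that adds mannose to cadherins. *Tmtc1* was singled out after the values were seen. It was at 30.1, 35.1, 38.3, 24.3 and 29.5 CPM in *Ncr1gfp/gfp* and 15.5, 12.9, 18.9, 18.8 and 19.3 CPM in *Ncr1+/+* replicates 1 to 5, again without overlap. Its log2 fold change was 0.88 (SE 0.14, adjusted p = 0.0013, edgeR's quasi-likelihood test), and between 0.79 and 0.96 when 1 library at a time was left out. The ratio of *Rps4l* to *Tmtc1* CPM was 0.822 ± 0.114 in *Ncr1gfp/gfp* and 0.818 ± 0.171 in *Ncr1+/+* ILC1s (SD over n = 5 libraries), with overlapping ranges, which is a description, since *Tmtc1* was picked for its similar change. The table gives the span of *Tmtc1* but not its exons, and the library kit does not mark the strand, so reads of *Rps4l* and of *Tmtc1* RNA that cover the same stretch cannot be told apart. The nearest tested genes on both sides had values closer to 0, with log2 fold changes of 0.06 for *Ergic2*, -0.04 for *Ccdc91*, 0.05 for *Ipo8*, -0.34 for *Caprin2* and 0.50 for *Fam60a*, none with an adjusted p under 0.05 in edgeR's test. The T cell markers given above were also higher in *Ncr1gfp/gfp* libraries, and their part in the level of *Rps4l* was not tested.

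**Figure D3:**
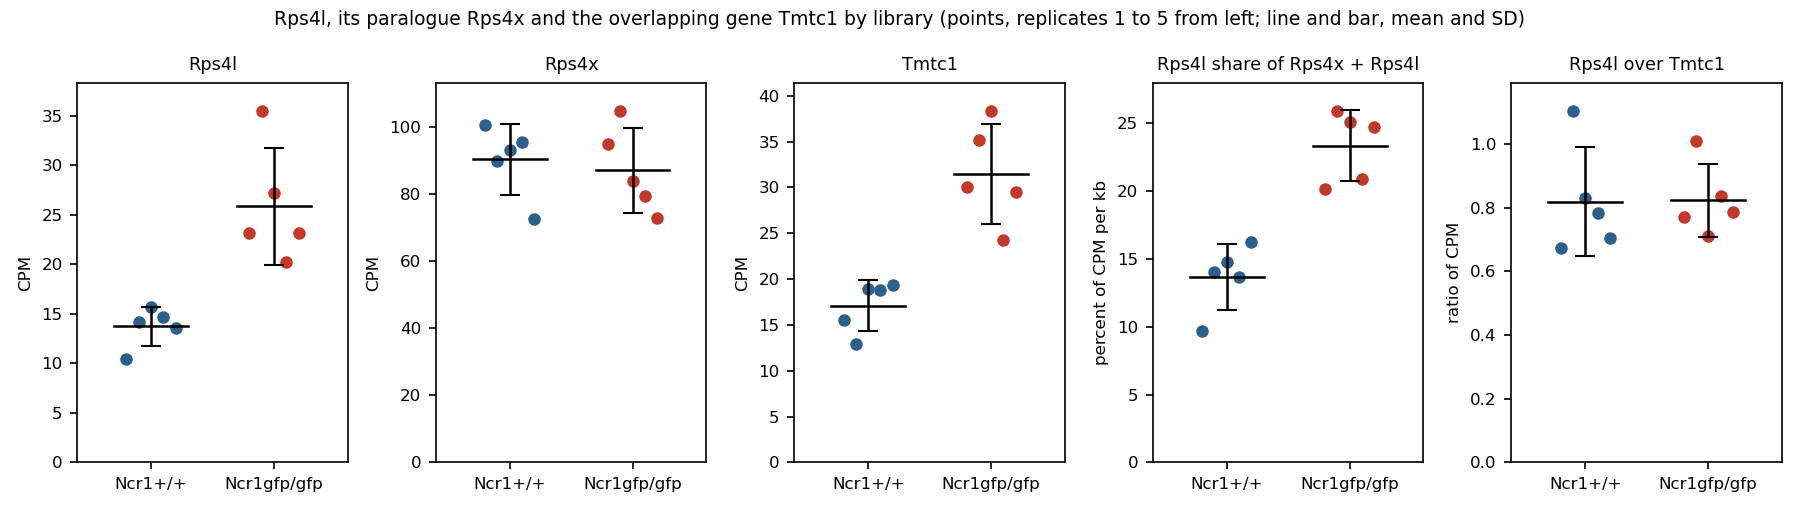
CPM of *Rps4l*, *Rps4x* and *Tmtc1*, the share of *Rps4l* in the pair *Rps4x* and *Rps4l* per kb of exon, and the ratio of *Rps4l* to *Tmtc1* CPM. Each point is 1 library, lines and bars give the mean and SD over 5 libraries of a genotype. *Rps4l*, its share and *Tmtc1* are higher in every *Ncr1gfp/gfp* library, while *Rps4x* and the ratio overlap.

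The other 3 pairs compared gave no difference past the threshold. Shares were not computed for the close copies *Rpl37rt*, *Rpl36al* and *Rpl7l1*. Log2 fold changes were -0.28 for *Rpl37rt* and 0.41 for *Rpl37*, which differ in sign, and 0.14 for *Rpl36al* and 0.35 for *Rpl36a*. They were 0.16 for *Rpl7l1* and -0.03 for *Rpl7*, and none of these genes had an adjusted p under 0.05 in edgeR's test. *Rpl22*, needed for the development of T cells, was at 61.0 CPM and its copy *Rpl22l1* at 16.2 CPM in *Ncr1+/+* ILC1s, or 24.4 and 33.3 CPM per kb. *Rpl22l1* made up 53.3 ± 6.78% of the pair in *Ncr1gfp/gfp* and 57.2 ± 4.56% in *Ncr1+/+* ILC1s per kb (SD over n = 5 libraries, exact permutation p = 0.349, two-sided). *Rps27l*, a copy of *Rps27* known as a target of p53, made up 64.3 ± 5.69% and 63.5 ± 5.92% of its pair (exact permutation p = 0.841), a direction that turned when *Ncr1gfp/gfp* replicate 3 or *Ncr1+/+* replicate 1, 2 or 3 was left out, to as low as -1.30 percentage points. *Rps27* shares its span with *Rps27rt*, and reads of overlapping genes are left out by default. Its counted level of 6.34 CPM in *Ncr1+/+* ILC1s is thus uncertain, and the share does not show which gene of the pair was higher. *Rpl39l* made up 0.577 ± 0.496% and 0.227 ± 0.204% (exact permutation p = 0.183), and was at 0 counts in *Ncr1gfp/gfp* replicate 4 and *Ncr1+/+* replicate 4, where 3 counts would be 0.178 and 0.151 CPM.

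The other genes at both ends of the fold changes had low levels, and their genotypes overlapped. *Rps12*, a small-subunit gene, had the most negative value, -0.66 (SE 0.27, adjusted p = 0.326, edgeR). It was at 3.37, 3.34, 4.13, 5.06 and 3.81 CPM in *Ncr1gfp/gfp* and 8.13, 6.31, 3.10, 7.07 and 6.53 CPM in *Ncr1+/+* replicates 1 to 5, so *Ncr1+/+* replicate 3 alone was not above the *Ncr1gfp/gfp* libraries. *Rpl39l* had the most positive value, 1.38 (SE 0.89, adjusted p = 0.618), with 1.02, 2.01, 0.159, 0 and 1.31 CPM in *Ncr1gfp/gfp* and 0 to 0.706 CPM in *Ncr1+/+* libraries, which overlap. *Rpl23a*, a large-subunit gene at the exit of the peptide tunnel, followed with 1.13 (SE 0.56, adjusted p = 0.459). Its 5.84 CPM in *Ncr1gfp/gfp* replicate 1 and 3.06 CPM in replicate 2 were above all other libraries, which lay between 0.544 and 1.96 CPM. *Rpl37* of the large subunit was at 9.05 to 12.9 CPM in *Ncr1gfp/gfp* and 6.57 to 10.2 CPM in *Ncr1+/+* ILC1s, a value of 0.41 (SE 0.18, adjusted p = 0.358). The remaining extremes were *Rps28* at -0.46, *Rpl22l1* at -0.33, *Rps19* at -0.29, *Rpl37rt* at -0.28 and *Rps15a-ps6* at 0.36, with adjusted p-values between 0.496 and 0.82 in edgeR's test.

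Ribosomal proteins with roles outside the ribosome had log2 fold changes between -0.29, for *Rps19*, and 0.15, for *Rpl38*. *Rps6*, whose phosphorylation by S6 kinase is a common readout of mTOR activity, had 9.56 ± 1.75 CPM in *Ncr1gfp/gfp* and 9.69 ± 1.64 CPM in *Ncr1+/+* ILC1s, a log2 fold change of -0.02. *Rpl5* and *Rpl11*, which bind Mdm2 and so link faulty ribosome assembly to p53, had log2 fold changes of -0.20 and -0.06. *Rps19*, the gene most often mutated in Diamond-Blackfan anaemia, had 9.22 ± 1.59 CPM against 11.3 ± 2.36 CPM. *Rpl38*, needed for translation of certain Hox mRNAs, had 12.1 ± 2.90 CPM against 10.9 ± 0.602 CPM, a log2 fold change of 0.15, and *Rps27a* 2.56 ± 1.30 against 2.39 ± 0.665 CPM, a log2 fold change of 0.09 (SD over n = 5 libraries). The stalk genes *Rplp0*, *Rplp1* and *Rplp2* had log2 fold changes of -0.09, 0.03 and -0.15. None of these 9 genes had an adjusted p under 0.05 in edgeR's test.

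Ribosomal protein genes tended to be high, or low, in the same libraries, within both genotypes. Relative to each gene's own mean, the median log2 deviation of the 37 genes with at least 20 CPM was 0.03, 0.17, -0.01, -0.13 and -0.19 in *Ncr1gfp/gfp* replicates 1 to 5, and 0.14, 0.00, -0.03, 0.07 and 0.00 in *Ncr1+/+* replicates 1 to 5. Of the 37 genes, 17 had their highest level in *Ncr1gfp/gfp* replicate 2 and 11 in *Ncr1+/+* replicate 1, while 17 had their lowest in *Ncr1gfp/gfp* replicate 5 and 10 in *Ncr1gfp/gfp* replicate 4. The *Ncr1gfp/gfp* libraries thus held both ends of the range, and for 29 of the 37 genes the SD was larger in *Ncr1gfp/gfp* than in *Ncr1+/+* libraries. Without *Ncr1gfp/gfp* replicate 5 the median fold change of the 85 genes was 0.01 in place of -0.04, and without replicate 2 it was -0.08. *Ncr1gfp/gfp* replicate 5 also carries a sample number of 66 in its title, apart from the run of 49 to 57 of the other 9 libraries, and what these numbers mark is not given in the sources used here.

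*Rn45s*, the precursor of ribosomal RNA, is given beside this by its share of all counts. It was 3.87, 4.70, 4.06, 3.37 and 3.57% in *Ncr1gfp/gfp* and 4.61, 4.29, 3.95, 4.90 and 4.43% in *Ncr1+/+* replicates 1 to 5. *Ncr1gfp/gfp* replicates 4 and 5 were lowest in both measures, and the part of *Rn45s* in the levels of the ribosomal protein genes was not tested. Leaving *Rn45s* out of the totals gave the 85 genes 0.554 ± 0.056% and 0.579 ± 0.028% of counts. The 2294 tested genes with the shortest exon length, a class that includes 77 of the 85 genes, had median deviations only between -0.03 and 0.06. The balance of the subunits overlapped between the genotypes, with small-subunit genes holding 44.3 ± 0.493% and 44.2 ± 0.803% of the counts of the 74 genes without copies, pseudogenes and *Rps19bp1* (SD over n = 5 libraries).

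**Figure D4:**
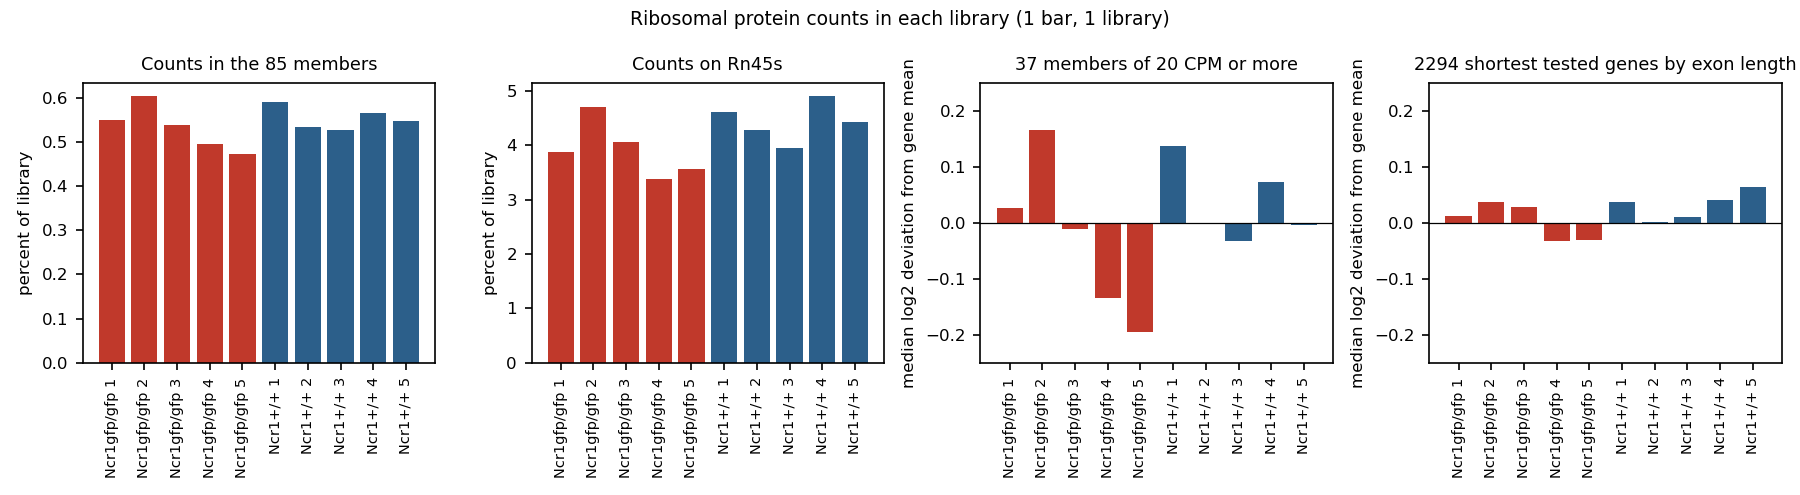
Share of counts in the 85 genes and on *Rn45s* (percent of the library), and the median log2 deviation from each gene's mean over the 37 ribosomal protein genes with at least 20 CPM and over the 2294 shortest tested genes. Each bar is 1 library, red for *Ncr1gfp/gfp* and blue for *Ncr1+/+*. *Ncr1gfp/gfp* replicate 2 stands at the high end and replicates 4 and 5 at the low end for the ribosomal protein genes, while the shortest genes vary less.

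Other genes of translation were set beside the ribosomal protein genes, and 0 of the 230 tested had an adjusted p under 0.05 in edgeR's test, against 1.35% of all tested genes. At an unadjusted p under 0.05 there were 9, or 3.91%, against 11.4%. The 4 ribosome parts with other symbols all had values below 0. *Rack1*, a scaffold on the small subunit, was the best measured, at 418 ± 47.1 CPM in *Ncr1gfp/gfp* and 453 ± 38.9 CPM in *Ncr1+/+* ILC1s (SD over n = 5 libraries), a log2 fold change of -0.11. *Rpsa*, which is also the laminin receptor, had -0.30 (unadjusted p = 0.0408, edgeR's test, adjusted p = 0.40), and *Fau* -0.20. The 13 elongation and termination factors had a median of -0.08, with 11 values below 0, and among them *Eef2*, which moves the ribosome along the mRNA, was at 1680 ± 172 CPM in *Ncr1gfp/gfp* and 1835 ± 130.4 CPM in *Ncr1+/+* ILC1s (log2 fold change -0.13, adjusted p = 0.433). The 39 initiation factors had a median of 0.00, with *Eif4a1*, the helicase that unwinds the mRNA leader, at -0.34 and *Eif2b3*, a subunit of the factor that recharges eIF2, at 0.36 (adjusted p = 0.245 and 0.407).

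The lists that make or regulate ribosomes also centred near 0. The median was -0.01 for 59 biogenesis factors, 0.03 for 14 RNA polymerase I subunits and factors, -0.02 for 24 regulators of TOP mRNAs and ribosomes, and 0.00 for 77 mitochondrial ribosomal proteins, which build a separate ribosome. Among the regulators, *Myc*, a driver of ribosome production, had a log2 fold change of -0.30 with 71.1 ± 6.53 CPM against 87.8 ± 10.4 CPM (unadjusted p = 0.00204, adjusted p = 0.0902, edgeR's test), and the S6 kinase gene *Rps6kb1* 0.20 (adjusted p = 0.207), and *Tial1*, an RNA-binding protein that represses TOP mRNAs, 0.15 (adjusted p = 0.376). *Nob1*, which trims the small-subunit RNA, had 0.33 and *Mrps5* 0.43, with adjusted p-values of 0.415 and 0.262.

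**Figure D5:**
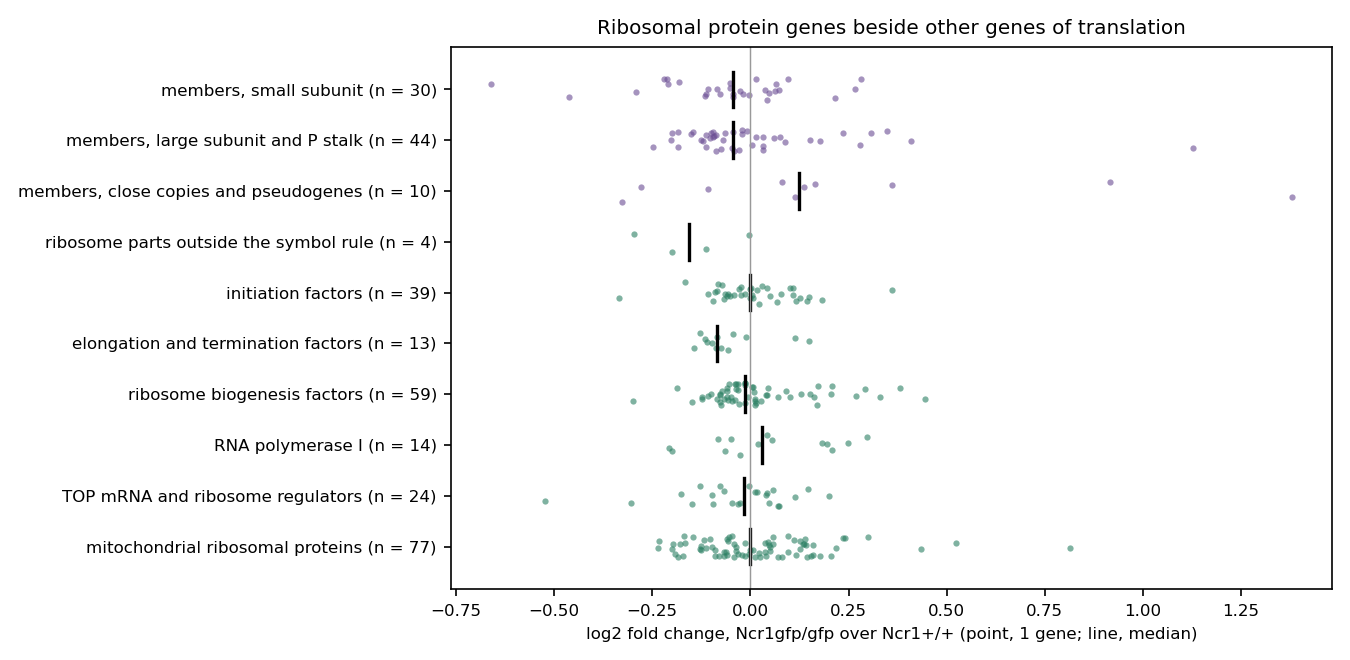
Log2 fold change, *Ncr1gfp/gfp* over *Ncr1+/+*, of the ribosomal protein genes by class (purple) and of other genes of translation (green). Each point is 1 tested gene, placed at random height within its row, and each black line is a median. The medians lie between -0.16, for the 4 ribosome parts with other symbols, and 0.13, for the 10 copies and pseudogenes, and *Rps19bp1* is not drawn.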

How the data were processed

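RNA from sorted liver ILC1s (5 *Ncr1gfp/gfp* and 5 *Ncr1+/+* libraries, grouped by their labels) was made into cDNA with the SMART-Seq v4 kit from 2 ng of RNA, primed at the polyA tail, and read for 51 cycles from one end, without strand information. The authors trimmed the reads with Trimmomatic 0.38 and FASTP 0.19.4, mapped them with STAR 020201 to a genome stated as mm10, counted them per gene with HTSeq 0.6.0 and deposited 1 table of whole-number counts, not normalized. The gene coordinates in that table are not those of GRCm38, and their build is not named. Reads with several mapping places are left out of such counts by default, which can lower the levels of genes with near-identical copies.

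From these deposited counts, genes were filtered with filterByExpr and scaled by TMM in edgeR 4.0.16 (R 4.3.3), and genotypes were compared with its quasi-likelihood test with genotype as the only term, following the thresholds of the study's methods (adjusted p under 0.05, fold above 1.5 or below 0.7), with Benjamini-Hochberg adjustment over 11463 genes. The script was tested on simulated data. CPM used the TMM-scaled library sizes, and library totals of 15796253 to 22623133 put 3 counts at 0.132 to 0.190 CPM. This floor covers counting error only. Shares of paralogues were compared with two-sided exact permutation tests over libraries. Deviations by library used log2(CPM + a prior count of 2).

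The 85 genes and all gene lists were chosen with earlier results of these data known. Genes were named by a rule: an adjusted p under 0.05, the 5 largest and 5 smallest fold changes, the 5 highest and 5 lowest levels per kb, no overlap between genotypes, a set of paralogues and ribosomal proteins with other known roles, every gene under the count limit, and other translation genes with an unadjusted p under 0.05. Of the genes this rule names, 2 are not reported here, and 1 of the 85 genes is not drawn. Of the 85 symbols, 85 were matched to RefSeq's mouse gene table (GRCm38.p6) for gene type and pseudogene names. Libraries of 1 genotype differed beyond sampling noise (chi-square per gene of 9.03 to 23.1) and each was counted as a replicate. Alternatives were other scalings and filters, a likelihood ratio test, DESeq2 1.42.0, limma 3.58.1 (voom with sample weights), a replicate block, each library left out, and, added after seeing the data, the genes with at least 20 CPM, the subunits apart, the genes with the shortest exons, and *Tmtc1* with its neighbours.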

Additional observations from a re-analysis of the deposited data

Results flagged for a closer look

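In 5 of the 82 groups of 5 libraries examined (by genotype, for each of the 34 ribosomal protein genes named, *Tmtc1*, the 4 paralogue shares, and the share of counts and median deviation of the 85 genes), 1 library stood far from the other 4, and chance alone would give about 4.1 such groups. *Rpl39* was at 101.5 CPM in *Ncr1gfp/gfp* replicate 2, against 77.5 CPM in the next library of its genotype. *Rpl4* was at 859.7 CPM in *Ncr1+/+* replicate 1, with 668 CPM next. *Rpl7l1* was at 53.44 CPM in *Ncr1+/+* replicate 5, with 47.8 CPM next, *Rps15a-ps6* at 3.18 CPM in *Ncr1+/+* replicate 4, with 2.12 CPM next, and *Rps19bp1* at 16.38 CPM in *Ncr1gfp/gfp* replicate 1, with 9.70 CPM next. Among these, the *Ncr1gfp/gfp* replicate 2 and *Ncr1+/+* replicate 1 are the libraries in which most of the well-measured ribosomal protein genes had their highest level.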

How the results depend on the processing

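*Rps4l* kept its direction and an adjusted p under 0.05 in all 18 alternative fits, with log2 fold changes from 0.77 to 0.99. The number of ribosomal protein genes called higher was 1 in each of them, and 0 once pseudogenes, close copies and *Rps19bp1* were left out. The number called lower was between 0 and 1 when each library was left out, and 1 without *Ncr1gfp/gfp* replicate 2. The median log2 fold change of the 85 genes was between -0.08 and -0.04 over the other tools, scalings and filters, and between -0.08 and 0.01 with each library left out. Over all tested genes, the count past the fold limits was 84, and became 138 with edgeR's likelihood ratio test and 131 without the filter on low counts, which tested 16610 genes. The count with an adjusted p under 0.05 was 155, and became 264 with the likelihood ratio test, 264 without the filter and 312 with DESeq2, and the cause was not tested. With each library left out, the counts ranged from 60 to 98 and from 100 to 160, lowest without *Ncr1+/+* replicate 3 (100) and replicate 1 (102) for the latter. The share of *Rps27l* in its pair differed by -1.30 to 2.73 percentage points with each library left out. Of 608 alternative values of the 34 ribosomal protein genes named, 568 kept their direction and side of the threshold, 39 in 14 genes had another sign with neither value past the threshold, and 1, of *Rps9*, passed the threshold anew.

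The replicate numbers did not pair the libraries, since same-numbered libraries correlated at -0.017 to 0.044 and 1 of 5 correlated best with its own number. With a replicate block, 156 genes had an adjusted p under 0.05, 87 passed the fold limits, and the ribosomal protein genes had 1 higher and 0 lower with a median of -0.05. Genes of a few CPM have wide intervals at this depth, and a change of 1.5-fold in them could go unseen.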
